A study of Mus musculus with 16 samples.

Results

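The genes described here make bile acids and oxysterols, the hydroxylated products of cholesterol, and were followed in the cerebellum of mice with and without *Atm*. They are *Cyp46a1*, *Cyp27a1*, *Cyp7b1*, *Cyp39a1*, *Cyp8b1*, *Hsd3b7*, *Amacr*, *Acox2*, *Scp2* and *Hsd17b4*, 10 of the 22907 named genes on the array. The pathway was chosen by earlier results on these same arrays, because its genes had moved in opposite directions with the genotype and with nicotinamide riboside (NR), a precursor of NAD+. The differences Atm-/- veh against WT veh and Atm-/- NR against Atm-/- veh are therefore given as a description. Calls in them are counted beside those of all probes, and nothing is read from these counts. The members were then found through the transcript accession of each probe, which gave 12 probes of 56605 (a probe is the DNA spotted on the array to bind one transcript).

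RNA of the cerebellar cortex was hybridised to 16 one-colour Agilent arrays, 4 for each combination of genotype (WT or Atm-/-) and drinking water (veh or NR). Atm-/- mice were homozygous for the B6;129S4-Atmtm1Bal/J allele, a targeted disruption of *Atm* in the germline, and WT mice were their littermates. Mice of both genotypes were given plain water (veh) or water that held 3.5 mg NR per ml, or 12 mM, from 6 weeks of age for 2 months, and tissue was taken at 3.5 months. Although every mouse is labelled male, *Xist* was detected and Y-linked genes were not on WT NR 1 and 4, on Atm-/- veh 3 and on Atm-/- NR 4, and these arrays were kept in their groups.

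WT arrays filled one slide and Atm-/- arrays the other, and the effects of genotype and of slide therefore cannot be told apart. On each slide the veh arrays filled row 1 and the NR arrays row 2, so that row and treatment cannot be told apart either. Between 34945 and 42559 probes per array were well above background, and replicate arrays correlated at r = 0.975 to 0.991. As a check of the labels, the dimmer of the *Atm* probes was lower by 0.87 on the log2 scale in Atm-/- veh than in WT veh (limma adjusted p = 0.000317) and by 0.76 in Atm-/- NR than in WT NR (limma adjusted p = 0.00135). The brighter *Atm* probe was not called in either comparison. Its difference was -0.35 in the first, without overlap of the groups (limma adjusted p = 0.221), and -0.12 with overlap in the second (limma adjusted p = 0.9997). The probes were not placed relative to the disrupted part of the gene. All 9 Purkinje cell markers and all 8 granule cell markers were well above background on all 16 arrays.

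Markers of other cells set 2 arrays apart. On Atm-/- veh 3 the summed signal of 3 blood genes was 625489, against 122152 to 252032 on the other 15 arrays, and that of 7 endothelial genes was 78906, against 36739 to 45490. WT veh 4 had the highest sums of choroid plexus (described below with *Acox2*), of meninges and fibroblasts (40433, 14625 to 22468 on the others) and of microglia (47726, 24487 to 39003 on the others). WT veh 4 also had the lowest sums of 9 Purkinje cell genes (833613, 951429 to 1226980 on the others) and of 8 granule cell genes (453978, 542221 to 717519 on the others). Its sum of 8 Bergmann glia and astrocyte genes was the lowest too (147116, 173326 to 213636 on the others). The sum of 8 oligodendrocyte genes was 296874 to 405747 in WT NR and 225522 to 281496 in Atm-/- NR, with 214514 to 311936 in WT veh and 239088 to 245061 in Atm-/- veh. The part of these cells in the values below was not tested.

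Cholesterol does not cross the blood-brain barrier, and the brain disposes of its surplus by hydroxylating it to oxysterols that can leave. *Cyp46a1*, found mainly in neurons and strongly in Purkinje cells, carries out the main such step. *Cyp27a1* hydroxylates the side chain in mitochondria, *Cyp7b1* and *Cyp39a1* hydroxylate the ring of the oxysterols so made, and *Hsd3b7* then oxidises the ring. *Cyp8b1* is a liver hydroxylase that sets how much cholic acid is formed. In peroxisomes, *Amacr* inverts a centre of the side chain, *Acox2* and *Hsd17b4* oxidise it, and *Scp2* codes for the thiolase that cuts it, as well as for a sterol carrier protein. Oxysterols also activate liver X receptors, which switch on genes of cholesterol export.

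The DNA before the start site, as given in the RefSeq table (build GRCm38.p6), was read for 6 of the 10 members. It was not read for *Cyp7b1*, *Cyp39a1*, *Amacr* and *Hsd17b4*, which does not show that these lack a start in that table. The 250 bases before the start are shown for the genes that open the brain and mitochondrial branches, for the peroxisomal thiolase and, beside them, for the liver hydroxylase. Capitals mark matches, on either strand, to 4 motifs. The GC box was searched as GGGCGG and the CCAAT box by the letters of its name. The TATA box was searched as TATAAA, and the half-site of nuclear receptors such as liver X receptors as AGGTCA. No marked matches overlap. The positions are chr12:108334066-108334315 (plus strand) for *Cyp46a1*, chr1:74713285-74713534 (plus strand) for *Cyp27a1*, chr4:108118548-108118797 (minus strand) for *Scp2* and chr9:121916306-121916555 (minus strand) for *Cyp8b1*.
Cyp46a1: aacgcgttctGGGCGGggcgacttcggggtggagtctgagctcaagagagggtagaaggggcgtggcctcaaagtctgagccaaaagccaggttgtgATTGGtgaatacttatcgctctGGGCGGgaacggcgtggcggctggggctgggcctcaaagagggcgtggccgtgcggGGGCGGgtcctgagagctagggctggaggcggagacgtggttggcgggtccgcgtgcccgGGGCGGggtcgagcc
Cyp27a1: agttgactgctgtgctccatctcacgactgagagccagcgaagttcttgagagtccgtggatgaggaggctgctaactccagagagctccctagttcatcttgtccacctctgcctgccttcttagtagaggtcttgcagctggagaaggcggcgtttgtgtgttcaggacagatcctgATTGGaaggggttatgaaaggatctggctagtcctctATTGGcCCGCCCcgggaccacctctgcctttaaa
Scp2: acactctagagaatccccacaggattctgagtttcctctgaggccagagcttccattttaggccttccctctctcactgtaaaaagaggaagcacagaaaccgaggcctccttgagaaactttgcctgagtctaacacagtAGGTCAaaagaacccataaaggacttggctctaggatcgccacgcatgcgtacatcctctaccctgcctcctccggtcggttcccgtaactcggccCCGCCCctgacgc
Cyp8b1: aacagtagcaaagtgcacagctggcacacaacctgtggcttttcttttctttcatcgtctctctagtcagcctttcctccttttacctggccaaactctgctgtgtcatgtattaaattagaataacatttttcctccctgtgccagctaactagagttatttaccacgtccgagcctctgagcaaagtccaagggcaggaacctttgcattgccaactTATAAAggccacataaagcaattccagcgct

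*Cyp46a1* held 4 GC boxes in this window, at 240, 131, 75 and 15 bases before the start, and 67.6% of its bases were G or C. Among all 32851 windows of the same length that were read, 32.7% held a GC box and the median GC content was 52.4%. *Cyp27a1* held 1 GC box and 2 CCAAT boxes (in 33.8% of all windows), and *Scp2* held 1 GC box and, at 109 bases before the start, 1 half-site (in 14% of all windows). *Hsd3b7* also held 1 GC box, and neither of the start sites of *Acox2* did. *Cyp8b1* was the member whose window held a TATA box, 31 bases before the start (in 12.4% of all windows), and it held none of the other motifs. These are matches of letters, not binding sites.

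Levels are given as log2 of the quantile normalised signal of the brightest probe of a gene. A difference of 1 is a factor of 2, and levels of different probes are not comparable with each other. Of the 10 members, 8 were well above background on all 16 arrays, *Acox2* was on 12, and *Cyp8b1* on 0. The fit across all probes kept those detected on every array of at least 1 group, 37253 in all, and 8 members were among them. *Cyp39a1* was detected everywhere, but its spot was marked as an outlier on Atm-/- veh 1, and its values come from a fit that left out that spot (n = 3 in Atm-/- veh). In whole tissue, fewer cells of a type and less RNA per cell cannot be told apart.

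**Figure D1:**
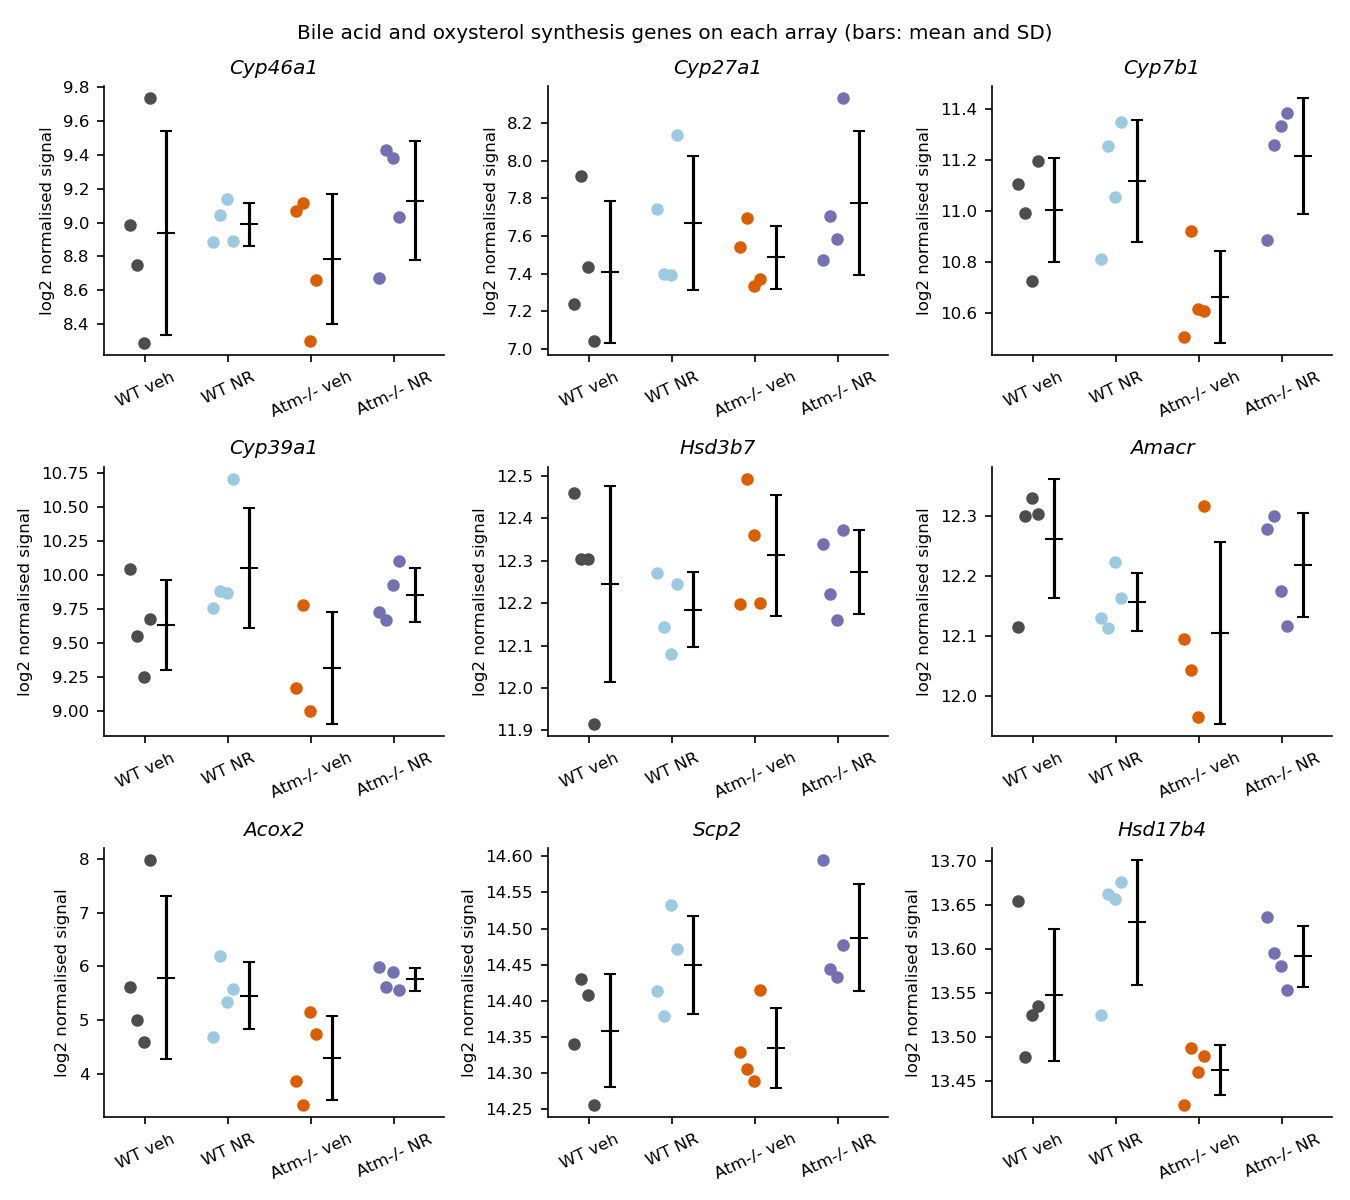
Log2 normalised signal of 9 members (y axis) on each array by group (x axis), with the mean and SD of each group as bars; each panel has its own scale. The Acox2 and Hsd17b4 points of Atm-/- NR lie above all Atm-/- veh points, WT veh 4 is the highest point for Cyp46a1 and Acox2, and Cyp39a1 has 3 points in Atm-/- veh.

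The neuronal hydroxylase *Cyp46a1* varied mostly within the groups. Its log2 signal was 8.98, 8.75, 8.29 and 9.74 on the WT veh arrays and 8.88, 9.04, 9.14 and 8.89 on the WT NR arrays. On the Atm-/- veh arrays it was 9.07, 9.12, 8.30 and 8.66, and on the Atm-/- NR arrays 8.67, 9.43, 9.38 and 9.03. All groups overlapped, and the highest value stood on WT veh 4. The group means were 8.94 ± 0.60 (SD, n = 4) for WT veh and 8.99 ± 0.12 for WT NR. They were 8.79 ± 0.38 for Atm-/- veh and 9.13 ± 0.35 for Atm-/- NR, and no neighbours in the order of the means differed beyond the SD within groups of 0.40. NR in WT mice gave a difference of 0.05 (95% interval -0.53 to 0.63, limma adjusted p = 0.991). Without WT veh 4 that difference was 0.32 (limma adjusted p = 0.665), and the difference of Atm-/- veh from WT veh turned from -0.15 to 0.11. Under NR, Atm-/- and WT mice differed by 0.14 (95% interval -0.44 to 0.72, limma adjusted p = 0.9997).

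*Cyp27a1*, the mitochondrial side-chain hydroxylase, had a slightly higher mean with NR in both genotypes, within the spread. It was 7.24, 7.92, 7.43 and 7.04 on WT veh, and 7.74, 7.40, 7.39 and 8.14 on WT NR. It was 7.54, 7.70, 7.33 and 7.37 on Atm-/- veh, and 7.47, 7.70, 7.58 and 8.33 on Atm-/- NR. The number 4 array was the highest of both NR groups, WT NR 4 and Atm-/- NR 4, and both are among the arrays with *Xist* and without Y-linked signal. The NR difference was 0.26 in WT mice (95% interval -0.22 to 0.74, limma adjusted p = 0.842) and 0.29 in Atm-/- mice. Over the arrays with Y-linked signal alone, the WT difference was -0.014 (limma adjusted p = 0.993).

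*Cyp7b1*, which clears oxysterols by a ring hydroxylation, had the lowest mean in Atm-/- veh. Its brighter probe read 11.11, 10.99, 10.73 and 11.20 on WT veh, and 10.81, 11.26, 11.06 and 11.35 on WT NR. On Atm-/- veh it read 10.51, 10.92, 10.61 and 10.61, and on Atm-/- NR 10.89, 11.26, 11.34 and 11.39. Atm-/- NR 1 lay below Atm-/- veh 2, and the other 3 Atm-/- NR arrays lay above all Atm-/- veh arrays. The means were 11.01 ± 0.20 (SD, n = 4) for WT veh, 11.12 ± 0.24 for WT NR, 10.66 ± 0.18 for Atm-/- veh and 11.22 ± 0.23 for Atm-/- NR. In order, Atm-/- NR, WT NR and WT veh lay within the SD within groups of 0.21 of their neighbours, and Atm-/- veh lay 0.34 below WT veh. From Atm-/- veh to Atm-/- NR the difference was 0.55, or 1.47-fold.

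The other *Cyp7b1* probe had its lowest mean in the same group, with smaller differences. It read from 8.63 to 9.23 on WT veh, from 8.76 to 9.19 on WT NR, from 8.08 to 9.11 on Atm-/- veh and from 8.78 to 9.20 on Atm-/- NR. Its difference was -0.28 for Atm-/- veh against WT veh and 0.24 for Atm-/- NR against Atm-/- veh, where the brighter probe had -0.34 and 0.55. For Atm-/- NR against Atm-/- veh the dimmer probe was not called (limma adjusted p = 0.444), while the brighter was (limma adjusted p = 0.0346). In the comparisons that did not choose the gene, the brighter probe differed by 0.11 for WT NR against WT veh (95% interval -0.20 to 0.43, limma adjusted p = 0.909). It differed by 0.10 for Atm-/- NR against WT NR (95% interval -0.22 to 0.42, limma adjusted p = 0.9997). The dimmer probe differed there by -0.0021 and -0.03.

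*Cyp39a1*, which acts on the oxysterol that *Cyp46a1* makes, read 10.04, 9.55, 9.25 and 9.67 on WT veh and 9.75, 9.88, 9.86 and 10.70 on WT NR. On the 3 Atm-/- veh arrays with a value it read 9.17, 9.78 and 8.998, and on Atm-/- NR 9.72, 9.66, 9.93 and 10.10. Its mean was higher with NR in both genotypes, by 0.42 in WT (95% interval -0.09 to 0.93, limma adjusted p = 0.732) and by 0.54 in Atm-/- mice, and all groups compared overlapped. Atm-/- NR against WT NR gave -0.20 (95% interval -0.70 to 0.31, limma adjusted p = 0.9998). *Cyp8b1* lay between 2.24 and 3.64 on all 16 arrays and was never well above background, so no difference is given. For *Hsd3b7* the lowest and highest arrays were 11.92 and 12.46 for WT veh, 12.08 and 12.27 for WT NR, 12.20 and 12.49 for Atm-/- veh, and 12.16 and 12.37 for Atm-/- NR. This ring dehydrogenase was the member with the smallest difference in size for Atm-/- NR against Atm-/- veh, -0.04, and its NR difference in WT was -0.06 (95% interval -0.30 to 0.18, limma adjusted p = 0.943).

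*Acox2*, the oxidase of branched side chains, gave the largest differences of the members in the comparisons with Atm-/- veh, on a probe near background. It read 5.62, 4.997, 4.59 and 7.98 on WT veh, and 4.68, 6.19, 5.34 and 5.59 on WT NR. On Atm-/- veh it read 3.87, 3.43, 5.15 and 4.74, and on Atm-/- NR 5.99, 5.61, 5.91 and 5.55. Every Atm-/- NR array lay above every Atm-/- veh array, and WT veh 4 stood above all other arrays. The probe was well above background on 4 arrays of WT veh, 3 of WT NR, 2 of Atm-/- veh and 3 of Atm-/- NR, and it passed the filter through WT veh. Its second probe was so on 1 array, of WT NR, and was not kept. Fewer probes of all kinds passed that mark on the Atm-/- NR arrays (34945 to 37817) than on the Atm-/- veh arrays (39134 to 41905), and the part of this in the values was not tested. The difference was -1.50 for Atm-/- veh against WT veh and 1.47 for Atm-/- NR against Atm-/- veh, and with normexp, another background correction, these were -0.52 and 0.34. NR in WT mice gave -0.34 (95% interval -1.63 to 0.95, limma adjusted p = 0.942), and Atm-/- NR against WT NR gave 0.31 (95% interval -0.98 to 1.604, limma adjusted p = 0.9997).

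WT veh 4 also carried the signal of choroid plexus, the epithelium that makes cerebrospinal fluid and lies against the cerebellum. Of 8 choroid plexus markers, 6 were kept, 5 of them well above background on all 16 arrays. Their summed signal was 315921 on WT veh 4, between 5934 and 16777 on the other WT veh arrays, and between 4215 and 12691 on all arrays of the other groups. The liver list, which shares *Ttr* with it, had 2 of 5 genes kept. Without WT veh 4, the *Acox2* difference for Atm-/- veh against WT veh was -0.77 in place of -1.50, and for WT NR against WT veh 0.39 in place of -0.34 (limma adjusted p = 0.79). The difference of Atm-/- NR from Atm-/- veh does not use that array, and the choroid plexus sum was 4215 to 12011 in Atm-/- veh and 5088 to 6761 in Atm-/- NR. Its part in the WT values was not tested.

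**Figure D2:**
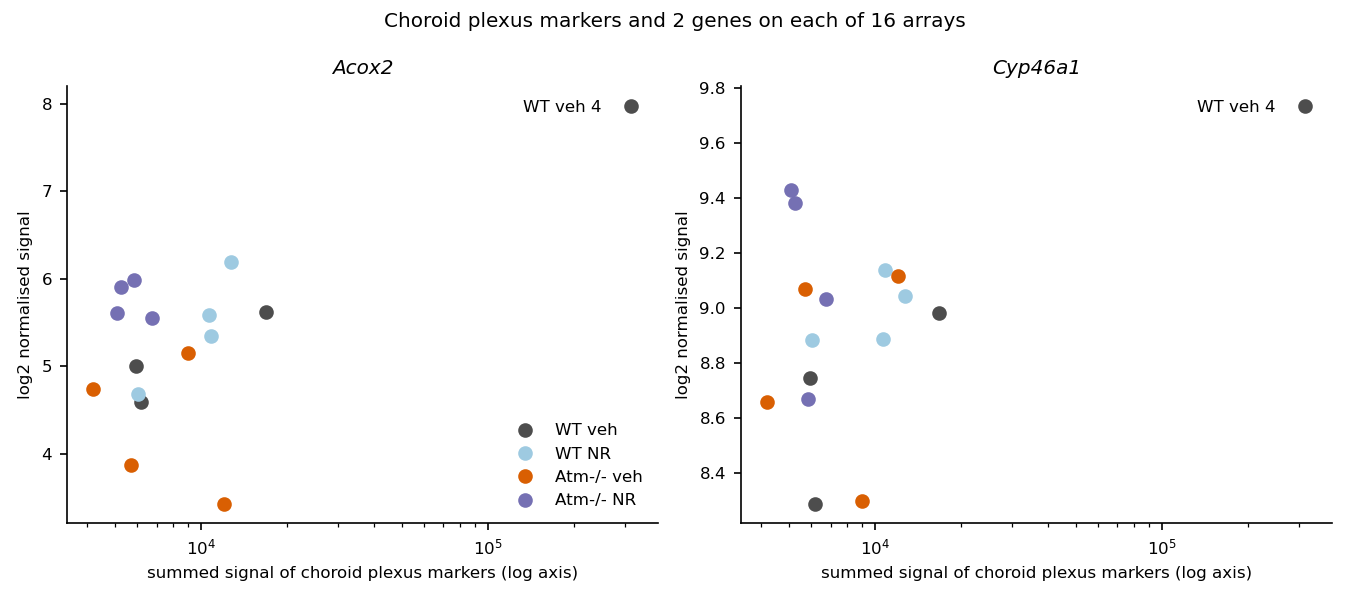
Log2 normalised signal (y axis) of Acox2 (left) and Cyp46a1 (right) against the summed normalised signal of 6 choroid plexus markers (x axis, log scale), one point per array, coloured by group. WT veh 4 stands alone at 315921 and has the highest signal of both genes, while the other 15 arrays lie at 16777 or below.

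The remaining peroxisomal enzymes moved by far less than *Acox2*, and their arrays spread less. *Hsd17b4*, the bifunctional enzyme after it, read 13.65, 13.48, 13.52 and 13.53 on WT veh, and 13.52, 13.66, 13.66 and 13.68 on WT NR. It read 13.42, 13.49, 13.46 and 13.48 on Atm-/- veh, and 13.64, 13.60, 13.58 and 13.55 on Atm-/- NR. Every Atm-/- NR array lay above every Atm-/- veh array, by a mean of 0.13. For WT NR against WT veh the groups overlapped, with a difference of 0.08 (95% interval -0.05 to 0.21, limma adjusted p = 0.806). For Atm-/- NR against WT NR it was -0.04 (95% interval -0.17 to 0.09, limma adjusted p = 0.9997).

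*Scp2* read 14.34, 14.43, 14.41 and 14.26 on WT veh, and 14.41, 14.38, 14.53 and 14.47 on WT NR. It read 14.33, 14.31, 14.29 and 14.41 on Atm-/- veh, and 14.59, 14.44, 14.43 and 14.48 on Atm-/- NR. Here too no Atm-/- NR array lay as low as an Atm-/- veh array, and the means differed by 0.15, or 1.11-fold. The NR difference was 0.09 in WT mice (95% interval -0.05 to 0.23, limma adjusted p = 0.803), with overlapping groups. *Amacr*, the racemase, ran from 11.97 to 12.33 over all arrays, and its NR difference was -0.10 in WT (95% interval -0.28 to 0.07, limma adjusted p = 0.826) and 0.11 in Atm-/- mice.

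The 2 comparisons that chose the pathway are set side by side over the 8 members in the fit, as counts. For Atm-/- veh against WT veh, 2 members were higher and 6 lower in Atm-/- veh, with a median of -0.12 (-0.0042 over all probes). Limma called 0 of them, where 0.0537% of all probes were called. None separated the groups without overlap, against 7.6% of all probes. For Atm-/- NR against Atm-/- veh, 7 members were higher and 1 lower, with a median of 0.22 (-0.00084 over all probes). The count of called members was 1 (*Cyp7b1*, by its brighter probe alone), where 9.04% of all probes were called and 4.56% were called higher. It was 0 without any one of Atm-/- veh 1, 3 or 4 or Atm-/- NR 2, 3 or 4, and Atm-/- veh 3 is the array with the blood and endothelial signal. *Acox2*, *Scp2* and *Hsd17b4* separated the groups without overlap, all higher, against 20.2% of all probes and 11.1% in that direction. Both comparisons share the Atm-/- veh arrays and chose the pathway, so nothing is read from these counts.

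In the comparisons that did not choose the pathway, no member was called. For WT NR against WT veh, 5 members were higher and 3 lower, with a median of 0.07 (-0.013 over all probes), and adjusted p ran from 0.803 to 0.991 in limma. No member had an unadjusted p under 0.05 (7.62% of all probes had) or separated the groups, where 0% of all probes were called and 4.09% separated the groups. For Atm-/- NR against WT NR, 7 were higher and 1 lower, with a median of 0.09 (0.0010 over all probes), and all had an adjusted p of 0.9997 in limma. Again no member had an unadjusted p under 0.05 (5.21% of all probes had) or separated the groups, against 0.0537% of all probes called and 4% separating them. These comparisons share the WT veh and the Atm-/- NR arrays with those that chose the pathway.

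**Figure D3:**
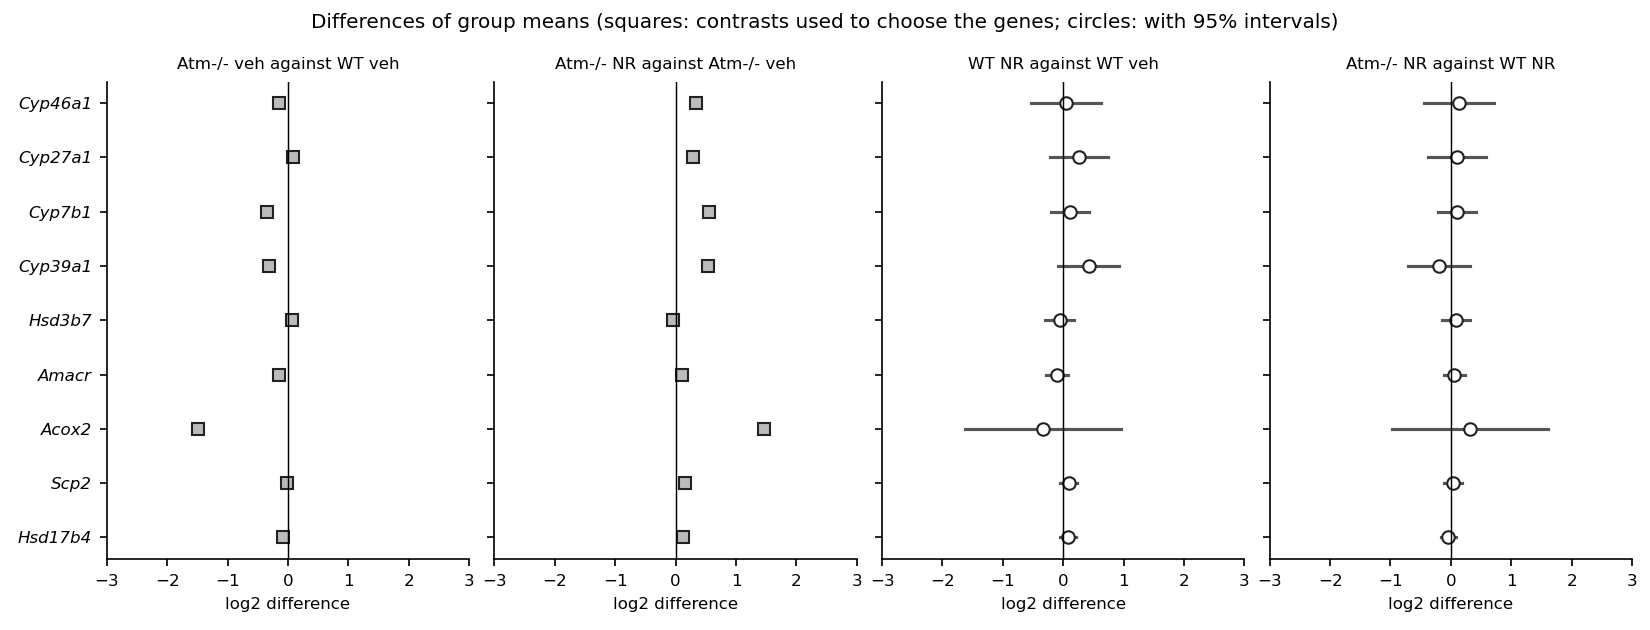
Log2 differences of group means (x axis) for 9 members (y axis), one panel per comparison. Grey squares mark the 2 comparisons that chose the pathway and carry no interval. Circles with 95% intervals mark the other 2, where every interval includes 0 and no gene had an adjusted p under 0.05.

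The NR effect in Atm-/- mice minus that in WT mice was above 0 for all 8 members, from 0.02 in *Hsd3b7* to 1.81 in *Acox2*, with 0.44 in *Cyp7b1*, 0.29 in *Cyp46a1* and 0.22 in *Amacr*. With one array left out, it ran from 1.08 (without WT veh 4) to 2.21 in *Acox2*, from 0.03 (without WT veh 4) to 0.51 (without WT veh 3) in *Cyp46a1*, and to both sides of 0 in *Cyp27a1* (-0.16 to 0.19) and *Hsd3b7* (-0.05 to 0.13). Of all probes, 50.9% had this value above 0, with a median of 0.0057, against a median of 0.14 over the members. The value contains a difference that chose the pathway, so no test or count of it is read. Limma called 0 members and 0% of all probes. Limma's test of any difference among the 4 groups, run as the rule for these genes asks and containing the same difference, called 0 members, against 4.84% of all probes.

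Across the 16 arrays, the members did not follow one common pattern. The highest Pearson correlations between members were 0.69 for *Cyp7b1* with *Hsd17b4* and 0.60 with *Cyp46a1*, and the lowest was -0.60 for *Hsd3b7* with *Acox2*. Among all named genes, those most like *Cyp46a1* were *Lin7b* (r = 0.92), *B3gat1* (r = 0.91) and *Olfr1444* (r = 0.89). Those most like *Cyp27a1* were *Atp5l* (r = 0.87), *Zfand1* (r = 0.87) and *Cd300a* (r = 0.85), and those most like *Cyp7b1* were *Znhit6* (r = 0.95), *Tmem14a* (r = 0.95) and *Klhl5* (r = 0.93). The points of these correlations share arrays, slides and scaling (n = 16), and the genes named are the highest among all kept named genes.

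Genes around the pathway were described by 6 lists, in which no gene was called for Atm-/- veh against WT veh, WT NR against WT veh or Atm-/- NR against WT NR. For Atm-/- NR against Atm-/- veh, the peroxisome assembly list had 5 of 17 genes called higher and 2 lower. Of all probes, 9.04% were called there, 4.56% higher and 4.48% lower. That comparison chose the pathway, and the lists were written with earlier results known, so nothing is read from these counts. *Pex11a*, which helps peroxisomes divide, was higher by 0.46 (12.40 ± 0.19 against 12.86 ± 0.08, SD, n = 4; limma adjusted p = 0.0138). *Pex14*, a docking protein of protein import, was higher by 0.34 (limma adjusted p = 0.0207). *Pex16*, which acts in membrane protein insertion, was lower, with a difference of -0.44 (limma adjusted p = 0.0216). The list had a median of 0.17, with 11 genes higher and 6 lower. For WT NR against WT veh, where none was called, its median was 0.07, also with 11 higher and 6 lower. Its 7 calls fell to 1 without Atm-/- veh 1 or without Atm-/- NR 3 (*Pex11a*), to 2 without Atm-/- veh 4 or without Atm-/- NR 2, to 4 without Atm-/- NR 1 or without Atm-/- NR 4, and to 0 over the arrays with Y-linked signal alone.

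The other lists, of 12 to 20 kept genes, had 1 or 2 genes called each for Atm-/- NR against Atm-/- veh. In that comparison 9.04% of all probes were called. It chose the pathway, so nothing is read from these counts. The 19 genes of peroxisomal beta-oxidation had a median of -0.05, with 9 higher and 10 lower. Of 12 kept genes of other steps of bile acid synthesis, *Fdxr*, which feeds electrons to mitochondrial cytochromes P450 such as *Cyp27a1*, was lower, with a difference of -0.37 (limma adjusted p = 0.0472). Its NR difference in WT mice was -0.34 (limma adjusted p = 0.522). *Cyp7a1*, the liver hydroxylase that opens the classical pathway, is on that list and was not kept after the filter on dim probes.

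Of 20 kept genes for oxysterol receptors and their targets, *Lpcat3*, a phospholipid-remodelling target of liver X receptors, was lower, with a difference of -0.44 (12.88 ± 0.11 against 12.45 ± 0.07, SD, n = 4; limma adjusted p = 0.00844). The receptor target *Abca1*, a cholesterol exporter, gave 0.02 (limma adjusted p = 0.967). Other genes of that list were lower without being called. From Atm-/- veh to Atm-/- NR the mean went from 13.21 to 12.71 for *Pltp* and from 17.60 to 17.39 for *Apoe*. In the whole list 11 genes were higher and 9 lower. Of 19 oxysterol-binding proteins, *Osbp* was lower, with a difference of -0.48 (limma adjusted p = 0.0174), and *Osbpl1a* higher by 0.33 (limma adjusted p = 0.0447). Of 13 kept bile acid receptors and transporters, *Slco1c1*, an organic anion carrier of brain vessels and choroid plexus, was higher by 0.55 (limma adjusted p = 0.0337). The call was lost in 7 of the 16 settings with one array left out, among them that without Atm-/- veh 3, the array with the blood and endothelial signal, where the difference was 0.48 (limma adjusted p = 0.0823). From WT veh to WT NR, the means went from 12.82 to 12.58 for *Lpcat3*, from 10.18 to 9.90 for *Osbp* and from 15.89 to 16.06 for *Osbpl1a*. For *Slco1c1* the mean was 11.25 in both. The medians of these 3 lists for Atm-/- NR against Atm-/- veh were 0.02, -0.03 and 0.02. Over 26 alternative settings no such difference changed sign, and the call was lost in 1 for *Lpcat3*, in 4 for *Osbp*, in 8 for *Slco1c1*, in 15 for *Fdxr* and in 16 for *Osbpl1a*.

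**Figure D4:**
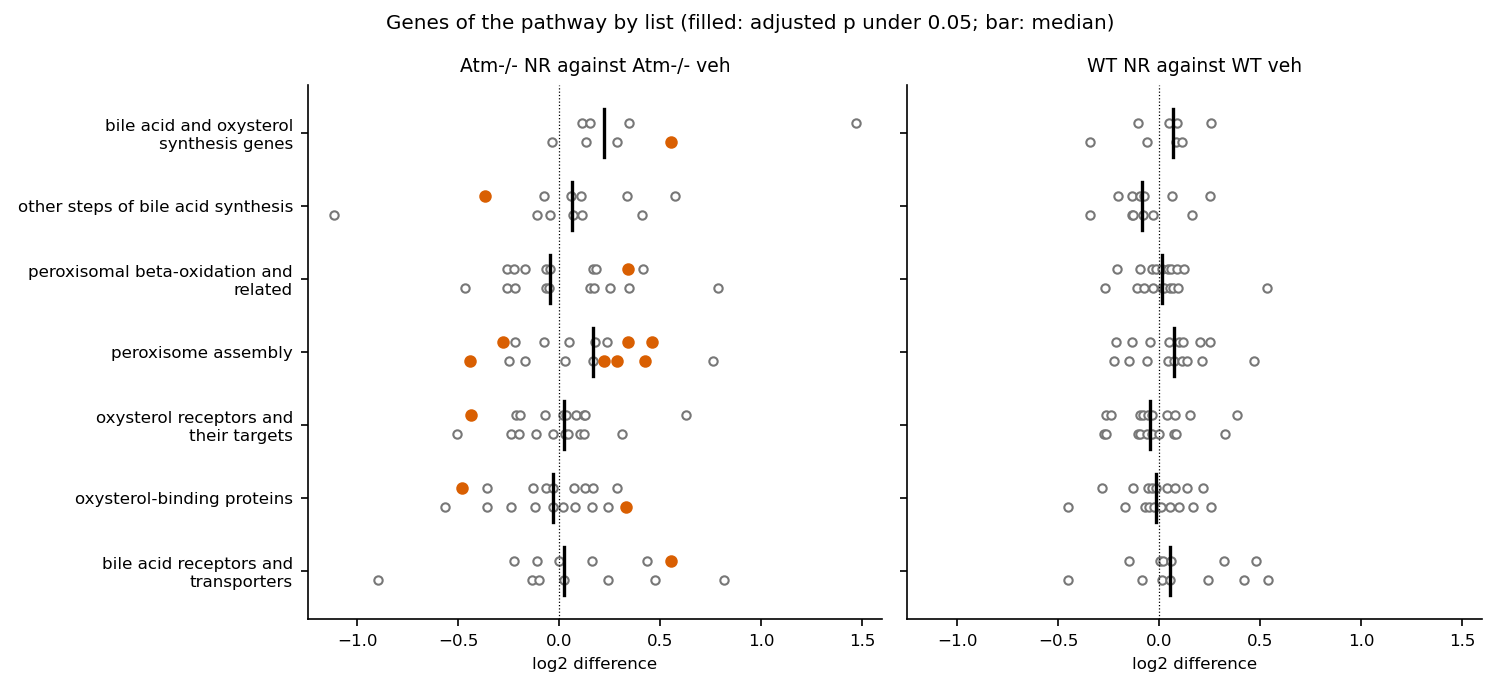
Log2 differences (x axis) of single genes in the bile acid and oxysterol synthesis set and 6 lists around it (y axis), for NR in Atm-/- mice (left) and in WT mice (right); filled points had an adjusted p under 0.05 and bars are list medians. Called genes lie on both sides of 0 on the left, with 7 of 17 in peroxisome assembly, and none is called on the right. The comparison on the left chose the pathway, and 9.04% of all probes were called in it.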

How the data were processed

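The authors deposited Agilent Feature Extraction 12.0.3.1 output for each of 16 one-colour arrays of cerebellar RNA, in which the intensity of each spot has its background subtracted and is not scaled between arrays. A series table the authors deposited holds scores, given as z-scores: quantile normalised log2 signals over all spots, centred and scaled within each array, were within 0.0076 of it, and each column had a median of -0.15. Groups and replicate numbers come from the sample labels.

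Of 62976 spots, 3671 controls were left out, and 58.3% of 56605 probes were named through RefSeq accessions (assembly GRCm38.p6, a build other than that of the array, used for names and for the start-site sequences). Probes with at least 0.5 of their spots well above background on all 4 arrays of a group were kept. Their log2 signal was quantile normalised, outlier spots were set aside and spots of a probe averaged, leaving 37253 probes (788 lost a value on some array). A gene is its brightest kept probe. Group means over all 16 arrays were fitted with limma 3.58.1 in R 4.3.3 (12 residual degrees of freedom; data.table, version 1.17.8), with Benjamini-Hochberg adjustment over all probes and a threshold of 0.05. The number of arrays limits the precision.

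The members, lists and marker genes were chosen with earlier results of these data known. Named besides the 10 members are, of 6 lists, called genes (at most 5 a list, by lowest adjusted p) and the 3 genes most correlated with each of *Cyp46a1*, *Cyp27a1* and *Cyp7b1*. *Abca1*, *Pltp*, *Apoe*, *Cyp7a1* and *Ttr* were named outside this rule, after their values were seen. Some list genes are not reported one by one here. The methods' z-ratio rule was not applied to single genes. The fit was tested on simulated data. Alternatives were scaling to the 75th percentile, normexp (offset 50, on median intensities), z-scores put back on the log2 scale, no filter, probes detected on all 16 arrays, the replicate block, array weights, arrays with Y-linked signal, each array left out, the arrays of the 2 groups alone, the methods' t-test, the other probe and, added after the data were seen, outlier spots as missing values.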

Additional observations from a re-analysis of the deposited data

Results flagged for a closer look

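On single arrays, 3 of 39 sets of 4 arrays had 1 array far from the others by Dixon's criterion, which chance meets in about 1 in 20. *Amacr* read 12.12 on WT veh 1 and from 12.30 to 12.33 on the other WT veh arrays. *Hsd17b4* read 13.52 on WT NR 1, against 13.66 to 13.68. *Cyp39a1* read 10.70 on WT NR 4, against 9.75 to 9.88.

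Every WT NR array had *Amacr* below the WT veh mean and every Atm-/- NR array had it above the Atm-/- veh mean, a difference of NR effects of 0.22. *Acox2* was below the WT veh mean on every Atm-/- veh array and above the WT NR mean on every Atm-/- NR array, a difference of genotype effects of 1.81. That probe passed the filter through WT veh, and without WT veh 4 the WT veh mean was 5.07, below the 5.15 of Atm-/- veh 3. The sign patterns themselves were not tested, and as both differences contain a comparison that chose the pathway, no test of them is read. The second *Acox2* probe, left out as dim, was well above background on 1 array.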

How the results depend on the processing

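Members called for Atm-/- NR against Atm-/- veh numbered 1 (*Cyp7b1*), and 2 with scaling to the 75th percentile and with array weights. They numbered 0 over the arrays with Y-linked signal and over the arrays of the 2 groups alone, and 0 to 2 with one array left out. The methods' t-test, at an unadjusted p under 0.05 alone, gave 4 of 8 members, where it gave 10391 of 37253 probes. After Benjamini-Hochberg it gave 1 member and 3041 probes. Array weights also gave 1 call (*Cyp7b1*) among 8 members for any difference among the 4 groups, where 5715 of 37253 probes were called. Limma calls over all probes for Atm-/- NR against Atm-/- veh ran from 438 with the Y-linked signal arrays to 6799 with array weights, against 3366. The *Cyp7b1* difference was 0.48 over the Y-linked signal arrays and 0.24 by the dimmer probe, and it was called in neither. No member was called in the other 3 comparisons or for the difference of NR effects under any setting run. For WT NR against WT veh, the sign turned for *Cyp46a1* with normexp (-0.00018), for *Cyp27a1* with array weights (-0.011) and the Y-linked signal arrays (-0.014), for *Acox2* with array weights (0.26) and for *Cyp7b1* by the dimmer probe (-0.0021), whose Atm-/- NR against WT NR was -0.030. With one array left out, WT NR against WT veh ran from -0.17 to 0.011 for *Hsd3b7*, -0.17 to 0.32 for *Cyp46a1* and -0.74 to 0.39 for *Acox2*, and Atm-/- NR against WT NR from -0.0048 to 0.21 for *Cyp7b1* and -0.081 to 0.26 for *Cyp27a1*. In the pathway lists, 1 gene was called under 1 setting each in 2 lists for Atm-/- veh against WT veh and in 1 list for Atm-/- NR against WT NR. The cause was not tested. Probes near background, such as that of *Acox2*, are limited by their signal.

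Arrays of the same replicate number did not all vary together (r from -0.15 to 0.20 between residuals). With the replicate number as a block, the count in that comparison was 1 (*Cyp7b1*, difference 0.55), and it was 0 in the others. As that comparison chose the pathway, nothing is read from the counts.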
